A study of Gallus gallus with 2 samples.

Results

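Solute carriers are membrane proteins that move amino acids, sugars, ions, metals, nucleotide sugars and vitamins across lipid bilayers. Uptake of amino acids and folate supplies dividing lymphocytes with building blocks, while exchangers of sodium for protons and cotransporters of chloride set the pH and volume of the cell. Many family members sit in the Golgi, endosomes or lysosomes instead of the cell surface. Splicing can alter a carrier by adding or removing part of a transmembrane segment or of a cytoplasmic tail, or by shifting the reading frame. SRSF10 belongs to the serine/arginine-rich proteins, which bind RNA and can favour either the inclusion or the skipping of an exon.

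The splicing events of solute carrier genes were taken from a table of alternative splicing in DT40, a chicken lymphoblast line whose B cells come from the bursa. Members were all events whose gene name begins with SLC and a digit or with SLCO, without the mitochondrial SLC25 family. This gave 135 of 10652 listed events, under 78 gene names. By the usual site of each family, 35 of the 78 genes belong to families of the plasma membrane alone, 26 to families found there or in an organelle, and 17 to families of the Golgi, endoplasmic reticulum, lysosome or vesicles, so the set is not confined to the cell surface. The names of 77 genes matched the RefSeq gene table of the GRCg7b assembly, and SLC39A14 did not.

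There was 1 poly(A) RNA library of wild-type DT40 cells (WT) and 1 of SRSF10-deficient DT40 cells (KO, SRSF10-/-). Whether the deficient cells were 1 clone is not given in the sources used here. With 1 library per genotype there is no replicate check, and each test compares the 2 libraries, not the genotypes. For each event the table lists reads that support exclusion and reads that support inclusion. The inclusion level is the inclusion reads as a percent of both, and a difference is KO minus WT in percentage points. Intervals are 95% Clopper-Pearson intervals for levels and 95% Newcombe intervals for differences, and they cover counting error only. Where a library had 0 inclusion reads, a 3-read limit is also given, the level that 3 reads of its total would have, a one-sided limit that is lower than the upper end of the two-sided interval. Of 133 solute carrier events with 2 numbers per library, 69 events of 44 genes had at least 20 reads in each library and entered a two-sided Fisher's exact test. Benjamini-Hochberg adjustment covered the 6089 events of the table with that depth. Changed events had to differ by 10 points or more with an adjusted p below 0.05. The 69 events held between 20 and 2088 WT reads (median 75) and between 20 and 2242 KO reads (median 88).

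SRSF10 has 0 rows in the table, so its loss could not be checked there. Of 15 genes chosen as B-lymphocyte markers 9 were listed, with 8391 WT and 8932 KO event reads together. Among them were BLNK (3966 and 3888), POU2AF1 (1233 and 1361), EBF1 (36 and 67) and BACH2 (23 and 8). PTPRC (956 and 1411) and IKZF1 (2017 and 1979), also counted there, are not confined to B lymphocytes. Of 7 T-lymphocyte markers CD3D and CD8A were listed, with 149 and 867 reads together, most of the difference coming from CD3D (69 and 759). None of 5 fibroblast markers was listed, and 2 of 4 liver markers had 8 and 7 reads. The part of these differences in the results below was not tested. A gene appears in the table only where an alternative event was listed, so absence from it says nothing of expression.

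Among solute carriers, splicing differed between the libraries in SLC38A7, an amino acid carrier, and SLC9A8, a sodium/proton exchanger. Of the 69 tested events, 4 passed the test, of which inclusion rose in 3 and fell in 1 in the KO library. The share was 5.80%, against a background of 4.7% of all tested events (2.48% higher and 2.22% lower). Counted by gene, an alternative chosen after seeing the data, 2 of 44 tested solute carrier genes changed, against 7.05% of all tested genes, since 3 of the 4 events lie in SLC38A7 and share reads. The median size of the difference was 2.75 points over the 69 events and 2.36 points over all tested events. A difference of 10 points or more, whatever its p, was seen in 9 of the 69 events, against 15.1% of all. Without undefined events, 4 of 45 tested solute carrier events had changed, against 6.05% of all events of a defined type.

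**Figure D1:**
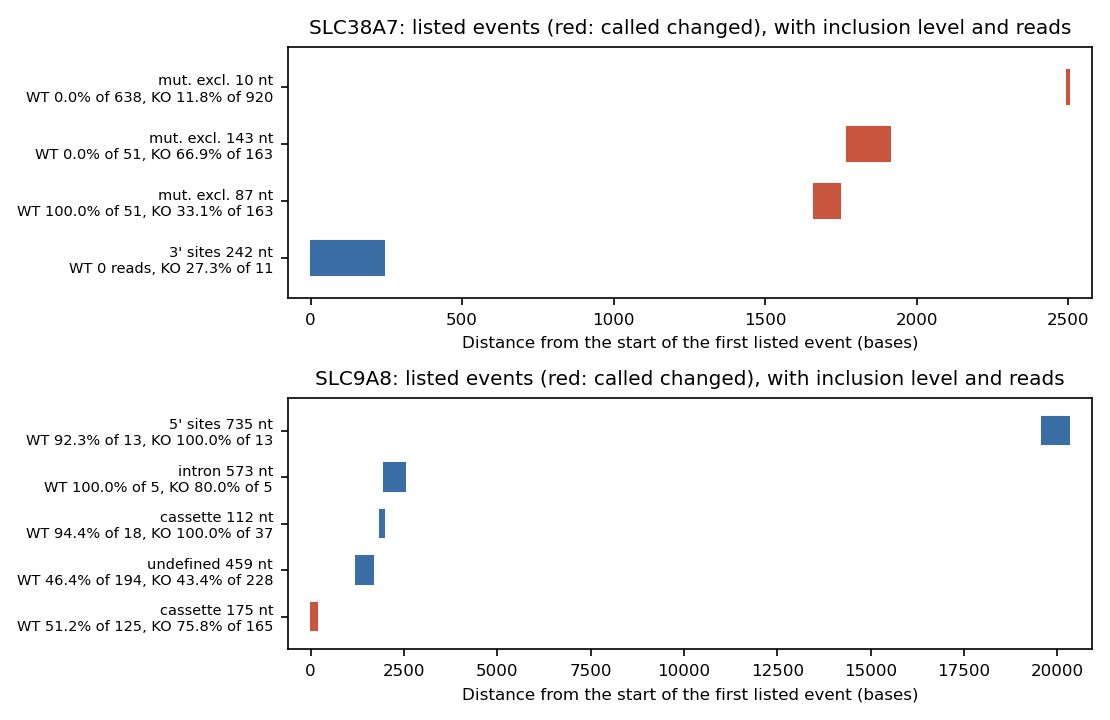
Position of every listed event of SLC38A7 (upper panel) and SLC9A8 (lower panel), as distance in bases from the start of the first one. Bars span the listed start and end, red marks events called changed, and labels give the level and reads in each library: the red 87 nt and 143 nt exons of SLC38A7 lie 21 bases apart with opposite levels, and the 175 nt exon is the red one in SLC9A8.

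SLC38A7 belongs to the sodium-coupled neutral amino acid transporters and in human cells carries glutamine and asparagine out of lysosomes. The table lists 3 rows of mutually exclusive exons for it on chromosome 11 of galGal4. An 87 nt exon (1466933 to 1467019) was supported by 51 of 51 reads in the WT library, a level of 100% (93.0 to 100). In the KO library it was supported by 54 of 163 reads, a level of 33.1% (26.0 to 40.9). Within this row the exon was thus the sole form in the WT library and the minor form in the KO library. The intervals do not overlap. Its own reads were 51 and 54, while the reads on the exclusion side went from 0 to 109. Its level fell by 66.9 points (interval of the difference -73.6 to -56.6; Fisher's exact test, adjusted p = 9.14e-18).

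The neighbouring 143 nt exon (1467041 to 1467183) is the mirror of this row, with the same reads on the opposite sides. It had 0 of 51 WT reads, for which the 3-read limit is 5.88% (interval 0 to 6.98), and 109 of 163 KO reads, a level of 66.9% (59.1 to 74.0). Both rows describe 1 change in share and count as 1 observation. The listed exons are separated by 21 bases. The 87 nt exon has a length divisible by 3 and the 143 nt exon does not.

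Another SLC38A7 row, a 10 nt exon (1467766 to 1467775), had 0 of 638 WT reads, with a 3-read limit of 0.470% (interval 0 to 0.577), and 109 of 920 KO reads, a level of 11.8% (9.83 to 14.1). Its 109 KO inclusion reads are the same number as those of the 143 nt exon, with 0 in the WT library for both. The row is thus not independent of that change. It rose by 11.8 points (Fisher's exact test, adjusted p = 3.23e-24). The deeper exclusion side of the row went from 638 to 811 reads. The remaining SLC38A7 event, a pair of competing 3' splice sites 242 nt apart, had 0 reads in the WT library and 11 in the KO library, 3 of them for inclusion.

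The calls in SLC38A7 rest on counting noise alone as the error. Mutually exclusive rows were called in 46.7% of cases over the whole table, and their chi-square had a median 13.7 times as high as counting noise alone would give. Divided by that factor, the 3 rows no longer passed (adjusted p of 0.708, 0.708 and 0.525). With such an allowance made for every event type, 0 of the 69 solute carrier events passed, against 0.903% of all tested events. The authors' deposited table gave them adjusted p-values of 0.163, 0.227 and 0.0850.

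SLC9A8 encodes a sodium/proton exchanger found in mammals in the Golgi and at apical membranes. Its 175 nt cassette exon, an exon kept or skipped as a whole (chromosome 20, 14172708 to 14172882), was supported by 64 of 125 reads in the WT library, a level of 51.2% (42.1 to 60.2). In the KO library 125 of 165 reads supported it, a level of 75.8% (68.5 to 82.1). Exclusion and inclusion reads were thus about equal in the WT library and inclusion reads dominated in the KO library, with intervals that do not overlap. These are shares of reads, not of transcripts. Halving the inclusion reads of cassette exons, an alternative setting, lowers both levels. The level rose by 24.6 points (13.4 to 35.0; Fisher's exact test, adjusted p = 0.000797). The exon's length is not divisible by 3.

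This was the 1 changed cassette exon of 22 tested in solute carriers (4.55%), against 6.07% of all cassette exons. For cassette exons the corresponding factor was 3.97, and with that allowance the SLC9A8 exon no longer passed. Nor did it pass with all reads divided by 2 (Fisher's exact test, adjusted p = 0.113). The authors' deposited table gave it an adjusted p of 0.0923. The other SLC9A8 events did not pass or had too few reads to test. An undefined event, one that the table puts in no splicing class, of 459 nt had levels of 46.4% over 194 WT reads and 43.4% over 228 KO reads. A 112 nt cassette exon was included in 17 of 18 WT reads and 37 of 37 KO reads, a retained intron had 5 reads in each library, and a 5' splice site pair had 13 in each.

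**Figure D2:**
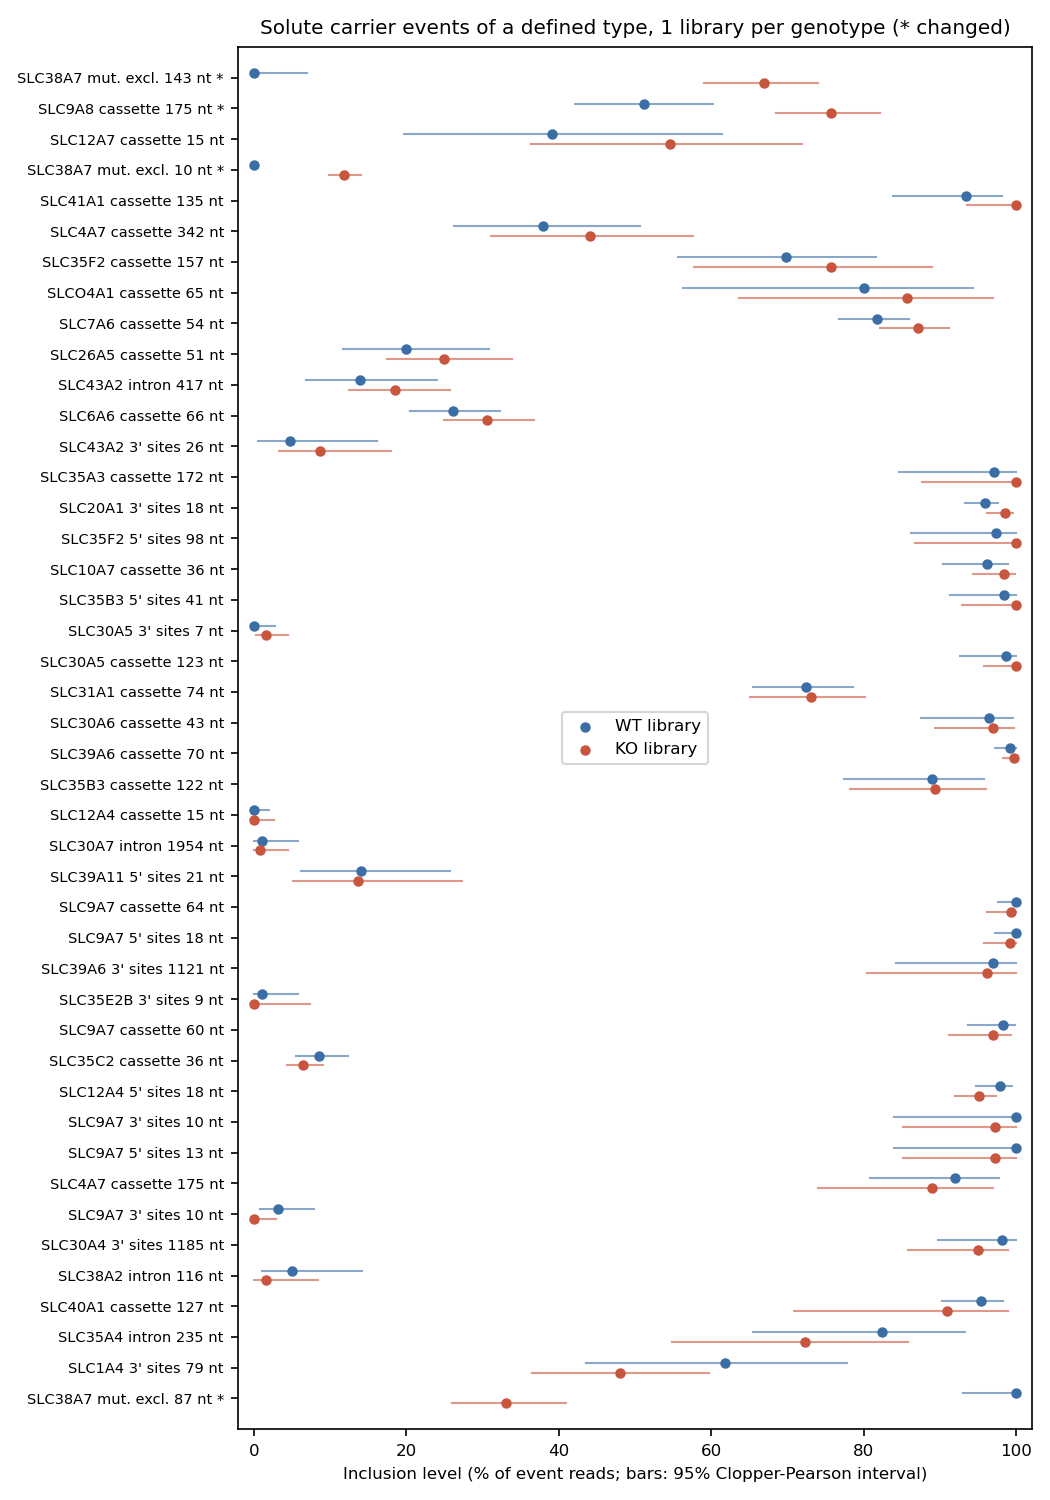
Inclusion level, in percent of event reads, of 44 tested solute carrier events of a defined type, in the WT (blue) and KO (red) library. Bars are 95% Clopper-Pearson intervals, rows are ordered by the difference, and asterisks mark changed events; outside SLC38A7 and the SLC9A8 exon the bars of the 2 libraries overlap in every row.

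Other sodium/proton exchangers, with SLC9A8 set aside after its call was seen, had 0 changed events, against 4.7% of all tested events. SLC9A7, an exchanger of the trans-Golgi network in mammals, had 7 listed events, the most of any solute carrier, of which 6 were tested. Cassette exons of 64 nt and 60 nt were included in 148 of 148 and 109 of 111 WT reads and in 139 of 140 and 93 of 96 KO reads. The difference was -0.71 points (-3.93 to 1.88) for the 64 nt exon and -1.32 points (-7.14 to 3.65) for the 60 nt exon. A pair of SLC9A7 3' sites and a pair of 5' sites listed the same counts, 21 of 21 and 34 of 35 reads, and are not independent. A pair of SLC9A7 5' sites 18 nt apart was at 127 of 127 WT and 126 of 127 KO reads, and a pair of 3' sites 10 nt apart at 4 of 127 and 0 of 126, with a 3-read limit of 2.38% for the KO library (interval 0 to 2.89). None of these 6 events passed.

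Among carriers of other inorganic ions, potassium/chloride cotransporters gave the widest difference that did not pass. A 15 nt exon of SLC12A7 was included in 9 of 23 WT reads (39.1%) and 18 of 33 KO reads (54.5%), with an interval of the difference of -10.6 to 38.5 points. The related SLC12A4 had a 15 nt exon with 0 of 177 WT and 0 of 134 KO reads, with 3-read limits of 1.69% and 2.24% (intervals 0 to 2.06 and 0 to 2.72). Its pair of 5' sites 18 nt apart was at 97.9% of 188 WT reads and 95.2% of 289 KO reads. SLC20A1, a sodium-coupled phosphate carrier, had 367 of 383 WT and 256 of 260 KO reads on 1 side of a pair of 3' sites 18 nt apart, a difference of 2.64 points (-0.20 to 5.31).

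A 342 nt exon of SLC4A7 and a 51 nt exon of SLC26A5 were used at intermediate levels in both libraries. In SLC4A7, a sodium bicarbonate cotransporter, a 342 nt exon was at 37.9% of 66 WT reads and 44.1% of 59 KO reads, and a 175 nt exon at 92.0% of 50 and 88.9% of 36. SLC26A5, known in mammals as prestin, the motor protein of outer hair cells, had 75 WT and 116 KO reads at a 51 nt exon, included at 20% (11.6 to 30.8) and 25% (17.4 to 33.9). None of these events passed the test.

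Amino acid carriers other than SLC38A7 gave 13 tested events and 0 calls, against 4.7% of all tested events and 0.712% of the undefined ones. All tested events of SLC7A1, SLC7A3 and SLC38A1 were undefined. SLC38A7 was set aside after its calls were seen, so the 0 is no result about the class. The authors' deposited table gave 1 of 133 solute carrier events an adjusted p under 0.05, that of SLC1A4, a neutral amino acid exchanger (0.0361), against 1.67% of all listed events. At its pair of 3' splice sites 79 nt apart (chromosome 3, 9807250 to 9807329) 21 of 34 WT reads and 37 of 77 KO reads supported inclusion, levels of 61.8% (43.6 to 77.8) and 48.1% (36.5 to 59.7). The difference of -13.7 points had an interval of -31.7 to 6.30 and did not pass (Fisher's exact test, adjusted p = 0.833). The intervals overlap over most of their length.

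Cassette exons of SLC6A6, the taurine carrier, and SLC7A6, a light chain of heteromeric amino acid carriers, were measured more deeply. The 66 nt exon of SLC6A6 (chromosome 12, 10953480 to 10953545) was at 26.1% (20.5 to 32.3) of 230 WT reads and 30.6% (24.9 to 36.8) of 245 KO reads. The 54 nt exon of SLC7A6 (chromosome 11, 318887 to 318940) was at 81.7% (76.8 to 85.9) of 295 WT reads and 87.1% (82.1 to 91.1) of 233 KO reads. Both levels were a little higher in the KO library, by 4.53 points (-3.60 to 12.5) and 5.43 points (-0.90 to 11.5), and neither difference passed. Both exons preserve the reading frame by length.

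SLC7A1, a carrier of cationic amino acids, had 5 undefined events. In 4 of them the exclusion reads were 3 in the WT and 0 in the KO library, so these 4 may count the same reads, and their inclusion levels were 90.9% to 96.6% in the WT library and 100% in the KO library. The fifth had 43.6% of 149 and 45.5% of 88 reads. An undefined event of SLC7A3, another cationic amino acid carrier, had the most WT reads of any solute carrier event. Its inclusion side held 54.2% of 2088 WT reads and 54.0% of 880 KO reads. SLC38A1, a glutamine carrier, had an undefined event at 35.0% of 769 and 35.7% of 684 reads. In SLC43A2, a carrier of large neutral amino acids, a retained intron was listed at 13.9% of 72 and 18.5% of 146 reads, and a pair of 3' sites at 4.76% of 42 and 8.70% of 69. The table does not state whether inclusion means retention of an intron, nor which of a pair of competing sites counts as inclusion. A retained intron of SLC38A2 was at 5.08% of 59 and 1.56% of 64 reads. None of these passed the test.

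**Figure D3:**
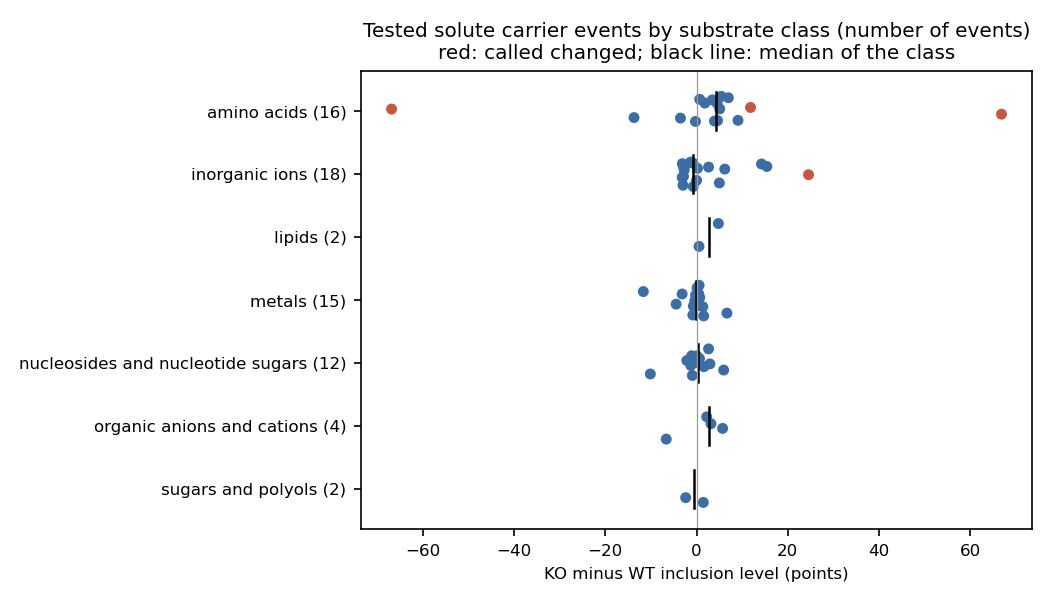
Difference in inclusion level, KO minus WT in percentage points, of the 69 tested solute carrier events by substrate class of the family. Each point is 1 event, red points were called changed, and black lines are class medians; the 4 red points lie among amino acid and inorganic ion carriers, and 50 of the 69 points lie within 5 points of 0.

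Metal carriers had 0 of 15 tested events called, against 4.7% of all tested events and 0.712% of the undefined ones, too few events to set the class apart. Within 5 points of 0 lay 13 of 15, against 69.4% of all tested events. The median size of the difference was 0.71 points. SLC31A1, which takes up copper, had a 74 nt exon (chromosome 17, 1488749 to 1488822) at 72.4% (65.5 to 78.6) of 192 WT reads and 73.1% (65.1 to 80.1) of 145 KO reads, a difference of 0.71 points (-8.99 to 10.1). This exon was used at an intermediate level in both libraries. A 70 nt exon of SLC39A6, a zinc importer, was included in 255 of 257 WT and 314 of 315 KO reads. Exons of the zinc carriers SLC30A5 (123 nt) and SLC30A6 (43 nt), which form a pair in the secretory pathway of vertebrates, were at 98.6% and 96.4% in the WT library and 100% and 96.9% in the KO library.

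The metal carriers with the largest differences were measured with few reads. SLC39A3, a zinc importer, had an undefined event at 41.7% of 36 WT reads and 30% of 20 KO reads, with an interval of the difference of -34.0 to 14.6 points. A 135 nt exon of SLC41A1, a magnesium carrier, was in 56 of 60 WT and 55 of 55 KO reads. Neither difference passed. In SLC40A1, the iron exporter ferroportin, a 127 nt exon was in 124 of 130 WT reads and 20 of 22 KO reads.

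Carriers of nucleotide sugars load the Golgi and endoplasmic reticulum for glycosylation. The SLC35 family was classed here as a whole as carriers of nucleosides and nucleotide sugars. It had 0 of 12 tested events called, against 4.7% of all and 0.712% of the undefined ones. Within 5 points of 0 lay 10 of 12, against 69.4% of all tested events. The deepest was an undefined event of SLC35B1, with 765 of 1528 WT and 1123 of 2242 KO reads, 50.1% in both. Exclusion and inclusion were nearly equal in many undefined rows, with 9 of 24 tested solute carrier rows between 45% and 55% in both libraries (37.5%, against 27.5% of all tested undefined rows), so their 2 numbers need not be competing isoforms. A 36 nt exon of SLC35C2 (chromosome 20, 11084498 to 11084533) was mostly skipped in both libraries, at 8.53% (5.60 to 12.3) of 293 and 6.40% (4.33 to 9.06) of 453 reads. In SLC35B3, a carrier of the sulfate donor of the Golgi, a 122 nt exon was at 88.9% of 54 and 89.3% of 56 reads. The pair of 5' sites of SLC35B3 was at 98.4% of 62 and 100% of 50 reads, and that of SLC35F2 at 97.4% of 38 and 100% of 26. A 157 nt exon of SLC35F2 was at 69.8% of 53 and 75.8% of 33 reads.

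A retained intron of SLC35A4 was at 82.4% of 34 WT reads and 72.2% of 36 KO reads, the widest tested difference of the class at -10.1 points (-28.8 to 9.72). A 172 nt exon of SLC35A3, the carrier of UDP-N-acetylglucosamine, was in 33 of 34 WT and 28 of 28 KO reads. Neither event passed. The smaller classes also had 0 calls, against 4.7% of all tested events and 0.712% of the undefined ones. SLC10A7 (36 nt exon, 96.2% of 104 and 98.4% of 123 reads), SLC16A3, the lactate exporter, and SLCO4A1 gave 4 tested events. Their families were classed here as carriers of organic anions and cations. SLC37A2, a sugar phosphate carrier of the endoplasmic reticulum, gave 2 undefined events, at 51.5% of 495 and 53.0% of 634 reads and at 42.0% of 312 and 39.6% of 356. SLC27A1, a fatty acid carrier, gave 2 more, at 39.7% and 44.4% and at 55.6% and 56.1%. Carriers of vitamins and choline had 0 tested events.

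**Figure D4:**
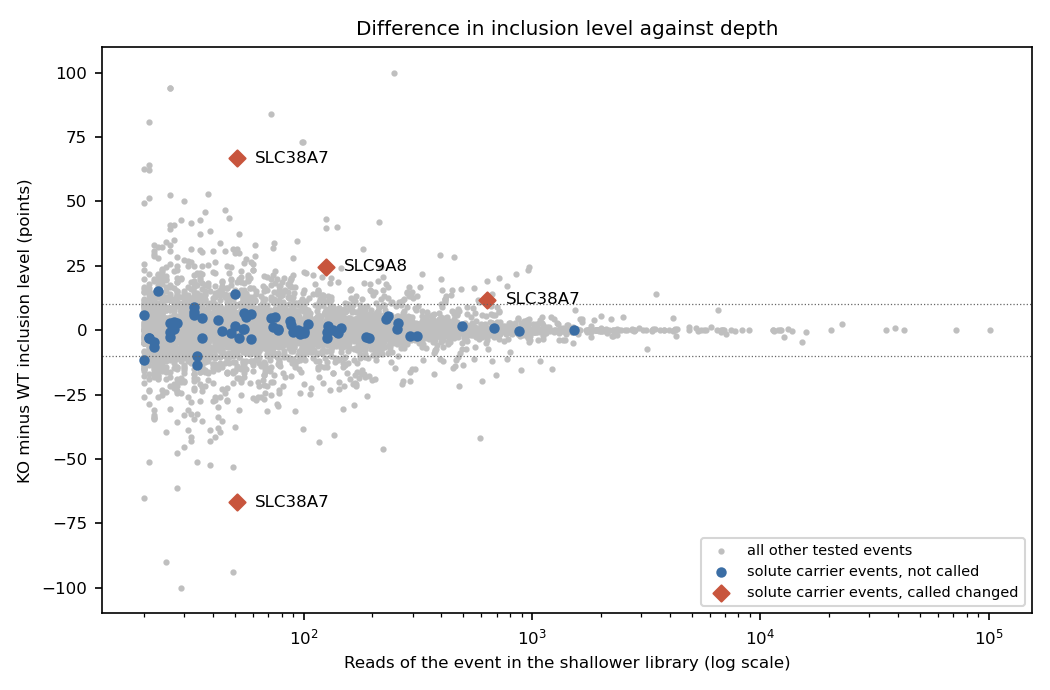
Difference in inclusion level (points) against the reads of the event in the shallower library (log scale) for all tested events (grey) and solute carrier events (blue not called, red diamonds called). Outside the dotted lines at 10 points in either direction stand the 4 red diamonds, 3 of SLC38A7 and 1 of SLC9A8, and 5 blue points with 20 to 50 reads.

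The tested cassette exons can be set beside all cassette exons of the table by level and length. Of 22 solute carrier cassette exons, 9 were above 90% in both libraries (40.9%, against 44.0% of all), 2 were below 10% in both (9.09% against 8.09%) and 11 were in between (50% against 47.9%). Their lengths ran from 15 to 342 nt with a median of 68 nt, against a median of 102 nt over all. The length was divisible by 3 in 11 of 22 (50%) against 57.3% over all. Alternative 3' sites were called in 0 of 9 solute carrier events (4.58% of all), 5' sites in 0 of 6 (4.21%), retained introns in 0 of 5 (4.53%) and undefined events in 0 of 24 (0.712%). Undefined events of the whole table had a median chi-square 0.162 times that of counting noise, so this test could rarely call them. Their 0 calls and small differences therefore say little. At an unadjusted p under 0.05 by Fisher's exact test, 5 of the 69 events passed, the 4 called ones among them. The SLC38A7 rows among these share reads. The share of all tested events at that threshold was not counted, so no excess can be read from this number.

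The 64 events with 2 numbers that were not tested include 14 with enough reads in 1 library and 3 with no reads in either, those of SLC18A2 and SLC5A10. SLC19A1, the reduced folate carrier, had a mutually exclusive exon of 291 nt (chromosome 7, 6683300 to 6683590) in 13 of 58 WT reads (22.4%, 12.5 to 35.3) and 10 of 10 KO reads (100%, 69.2 to 100). These intervals do not overlap, and with a minimum of 10 reads per library the event was called (Fisher's exact test, adjusted p = 0.000194). But the same position is also listed under COL18A1 with other exclusion counts, 0 and 30. The inclusion counts there are the same, 13 and 10, so under that name the level is lower in the KO library. In SLC35B4, a nucleotide sugar carrier, mirrored mutually exclusive exons of 82 nt and 61 nt went from 0 of 9 and 9 of 9 WT reads to 6 of 9 and 3 of 9 KO reads. In SLC43A3 the exons of 92 nt and 47 nt had 0 of 1 and 6 of 6 WT reads and 6 of 6 and 0 of 5 KO reads. A 66 nt exon of SLC37A4, the glucose 6-phosphate carrier, was in 5 of 15 WT and 1 of 21 KO reads, and a 60 nt exon of SLC35C2 in 3 of 9 and 8 of 8. No test was made for these at this depth.

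SLC8A3, a sodium/calcium exchanger with tissue-specific exons in mammals, listed cassette exons of 12, 18, 104 and 107 nt, but none had more than 6 reads in a library. A 6 nt exon of SLC30A1, a zinc exporter, was in 1 of 14 WT and 5 of 25 KO reads. SLC22A16, SLC36A4 and SLC7A9 listed 3, 3 and 4 events, and none of those reached 20 reads in both libraries. In SLC30A9 a pair of 3' sites 6 nt apart was used in 7 of 19 WT and 11 of 28 KO reads.

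Event reads were also summed per gene. These sums depend on expression and on which events are listed, rows that share reads count them more than once, and fewer cells of a type and less RNA per cell cannot be told apart in bulk RNA. All solute carrier events together held 12651 WT and 12783 KO reads, 0.618% and 0.632% of the listed reads. Of 52 solute carrier genes with at least 40 reads in both libraries together, 7 had a KO sum of 0.5 of the WT sum or less and 4 had a KO sum of 2 times the WT sum or more, so 21.2% were 2-fold apart. Over all 3879 such genes the shares were 5.83% lower and 6.44% higher, 12.3% in all. The median ratio of KO to WT reads was 0.976 over the solute carriers with WT reads and 1.01 over all genes.

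The genes with fewer KO reads included SLC5A9, SLC40A1, SLC19A1, SLC45A3, SLC20A2 and SLC7A3. SLC5A9, a sodium-coupled sugar carrier, had 103 WT and 6 KO reads, a ratio of 0.0583 (exact counting interval 0.0209 to 0.131). SLC40A1 had 130 and 22 reads, a ratio of 0.169 (0.103 to 0.267). SLC7A3 had 2088 and 880, a ratio of 0.421 (0.389 to 0.456), while its inclusion level was 54.2% and 54.0%. For SLC7A3 and SLC40A1 the reads differed 2-fold or more while the interval of the difference in level included 0. The SLC7A3 event is undefined, so its 2 numbers need not be competing isoforms. The SLC40A1 interval, -23.4 to 3.83 points, rests on 22 KO reads. Neither shows that splicing stayed the same. SLC19A1 had 58 and 10, SLC45A3 87 and 16, and SLC20A2, a phosphate carrier, 53 and 15 reads. The row listed under COL18A1 at the position of SLC19A1 had more reads in the KO library than in the WT library.

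The 4 genes with more KO reads were SLC13A5, SLC48A1, SLC1A4 and SLC36A4. SLC13A5, the citrate carrier, had 0 WT and 48 KO reads at its pair of 5' sites. The KO count is 16 times 3 reads, here a read count and not a level. The exact counting interval of the SLC13A5 ratio began at 12.5. SLC48A1, a heme carrier of lysosomes, had 100 and 234 reads, a ratio of 2.34 (1.84 to 2.99). Its deeper event, an undefined one, had an inclusion level of 50% and 49.8%. SLC1A4 had 34 and 77 reads and SLC36A4, a lysosomal amino acid carrier, 18 and 38. SLC38A7 had 740 and 1257 reads and SLC9A8 355 and 448, ratios of 1.70 and 1.26. The SLC38A7 sums count the mirrored rows 2 times, and the 109 KO reads recur in its 10 nt row, which raises its ratio. These ratios compare 1 library with 1 library, have no replicate check and were not tested.

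**Figure D5:**
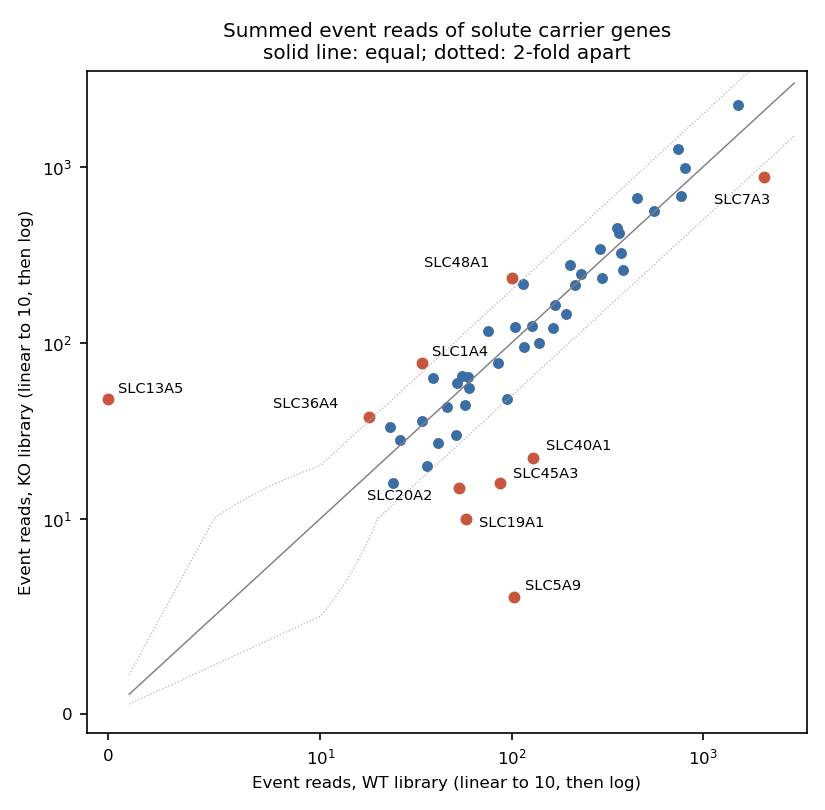
Event reads summed per solute carrier gene in the WT (x axis) and KO (y axis) library, for 50 genes with at least 40 reads in both together, on axes linear to 10 and logarithmic beyond. Red points with names lie 2-fold or more apart (dotted lines; the solid line marks equal reads): the named genes below the lower line include SLC5A9, SLC40A1 and SLC7A3, and the 4 above the upper line include SLC13A5 and SLC48A1.

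Other genes of membrane transport and nutrient sensing were counted in the same fit. ABC transporters gave 0 calls in 3 tested events, P-type ATPases and their beta subunits 0 in 24, and partners and regulators of solute carriers 0 in 16. At an unadjusted p under 0.05 by Fisher's exact test these lists held 0, 3 and 2 events. How many of all tested events pass there was not counted. Amino acid sensing genes upstream of mTORC1 gave 3 calls in 25 tested events, all higher in the KO library. All 3 were rows of EIF2AK4, the kinase GCN2 that senses uncharged tRNA. Read counts repeat between these rows, so they are not 3 independent observations. Together the lists had 3 of 68 events called (4.41%), against the 4.7% of all tested events given above. The mutually exclusive rows of EIF2AK4 (chromosome 5), an event type called in 46.7% of cases over the table, rose from 5% to 28.4%, from 0% to 21.2% and from 0% to 17.3% (Fisher's exact test, adjusted p of 0.00623, 0.00259 and 0.00119), and they lost their calls with the allowance for spread or with reads divided by 2. BSG, the partner that brings monocarboxylate carriers to the cell surface, had a 348 nt exon at 39.7% of 78 WT reads and 56.8% of 118 KO reads. That difference of 17.0 points (2.74 to 30.3) did not pass (Fisher's exact test, p = 0.0283, adjusted p = 0.264). BSG is an example, and other events of these lists that did not pass had lower p-values. Among them, a 90 nt exon of ATP13A3 fell by 8.73 points (Fisher's exact test, adjusted p = 0.0578). An 83 nt exon of ATP2C1 rose by 11.3 points (Fisher's exact test, adjusted p = 0.0695).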

How the data were processed

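Per the labels' protocols, poly(A) RNA of 1 WT and 1 KO sample was made into paired-end libraries. The submitters' processing notes name galGal4, Cufflinks and TopHat2 2.0.6. Which event caller and statistical test the authors chose is not given in the sources used here. Deposited were raw read counts per event for exclusion and inclusion, per the file headers, and the adjusted p-value of the authors. Of 10652 rows, 276 with 3 or more numbers were left out of tests and 57 repeated rows were removed, which left 10319 events. The listed reads summed to 2047679 (WT) and 2022414 (KO). Coordinates are as listed. Cassette exon length is end minus start plus 1, and the distance of competing sites is end minus start.

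Changed events, intervals and adjustment are as defined with the results. Substrate classes and usual membranes were assigned by family from general knowledge. The members, the lists and the tests were chosen with earlier results of these data known. Named events were those called changed, those at least 10 points apart, the deepest of each substrate class, those under 0.05 in the authors' table, all events of genes with 3 or more events, and mirrored rows; others are given as examples of their class, named after their values were seen. Some single results are not reported here, though their events stay in the counts. Spread above counting noise was measured per event type as the observed median chi-square divided by that of counting noise. Only rows with enough expected reads entered the median, mirrored rows entered separately, and a factor below 1 was set to 1. With 1 library per genotype, the factor holds any difference between the genotypes as well as spread, and the 2 cannot be told apart. Alternatives are given in the closing section. Tests ran in SciPy 1.17.1 with NumPy 2.4.6 and pandas 2.3.3 under Python 3.11.15, and figures in matplotlib 3.10.9. No sequence of galGal4 was used here.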

Additional observations from a re-analysis of the deposited data

Results flagged for a closer look

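Solute carrier rows with 3 numbers per library stood outside every comparison, since the header does not explain the order of the numbers, and both held reads. The row of SLC27A4, a fatty acid carrier, summed to 676 reads in the WT library and 771 in the KO library. That of SLC35A5 summed to 6 and 12 reads.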

How the results depend on the processing

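The count of 4 changed solute carrier events stayed between 3 and 5 with a minimum of 10 or 50 reads, a minimum difference of 0 or 20 points, an adjusted p under 0.01, reads divided by 2, cassette inclusion reads halved, 1 row per position, or undefined events left out (the last chosen after seeing the data). It was 0, with 0 higher and 0 lower, with each chi-square divided by the inflation of its event type, and 1, with 0 higher, with the authors' adjusted p; the 1 event was that of SLC1A4, and all 4 calls were lost. Counted as genes, chosen after seeing the data, it was 2, against 7.05% of all tested genes. In the settings with 3 to 5 calls, the share of all tested events ran from 1.72% (reads divided by 2) to 6.43% (undefined events left out). It was 0.903% with the division by inflation and 2.33% with the authors' adjusted p. With reads divided by 2, all remaining calls were SLC38A7 rows that share reads. The call added at 10 reads was that of SLC19A1, whose direction depends on the name it is listed under. The other lists had 3 calls in the main setting, 0 with reads divided by 2 and 0 with the division by inflation. With the authors' adjusted p they had 2, which need not be among those 3. Over 69 events and these settings, 701 single values kept their side of the threshold, 10 lost a call and 1 gained one. None of the settings could reverse the direction of a difference. The median size of the difference, 2.75 points, was 1.72 points with a minimum of 50 reads and 2.86 to 2.97 points under the other settings that moved it; the median read ratio of 0.976 became 1.07 with 1 row per position and undefined events left out. No paired analysis was possible because there was 1 library per genotype, and for the same reason no replicate could be left out. A call needed 10 points, so in the main setting differences of a few points could not be called at any depth. Without that minimum, 353 instead of 286 of all tested events were called, and 4 solute carrier events as before. The median depth of 75 WT reads also limited the detection of small differences.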
